A study of Rattus norvegicus with 8 samples.

Results

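The genes examined were the 10 inducible heat shock proteins and co-chaperones Hspa1a, Hspa1b, Hspa8, Hsph1, Hsp90aa1, Hspb1, Cryab, Dnajb1, Bag3 and Hsf1, chosen by symbol. Of these, 9 had a row among the 15590 genes of the deposited table, and Hspa1a was not listed. RNA came from the Achilles tendon of the right leg of wild-type (WT) Sprague-Dawley rats, which per the methods of the study were males aged 8 to 10 weeks. The 4 libraries labelled 0 h p.r. (post-run) were from rats killed directly after 1 h of uphill treadmill running, with airflow and mild electric stimulation used to keep them running. The 4 libraries of the naïve control (NC) were from rats that kept normal cage activity. Per the methods the control rats were killed together with a group at 12 h p.r., whereas the labels give no delay for either group. Running, the stimuli used to prompt it and the time of killing cannot be told apart in this design.

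Heat shock proteins are chaperones that hold, refold or pass on proteins that have lost their fold. In the cytosol, HSP70 binds unfolded stretches of protein, J proteins such as Dnajb1 load it with clients and drive its ATP cycle, and nucleotide exchange factors such as Hsph1 and Bag3 release them. The transcription factor HSF1 is held inactive by chaperones at rest and, when unfolded proteins draw these away, forms trimers that bind repeats of the 5-base unit nGAAn in promoters. Tenocytes, the fibroblasts that lay down tendon collagen, are under tension in a loaded tendon, which stores and returns elastic energy at every stride.

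After 1 h of running, 4 of the 9 listed genes were higher in every 0 h p.r. library than in any NC library and passed both thresholds of the test. These were the inducible HSP70 Hspa1b (13.7-fold), the HSP110 Hsph1 (4.07-fold), the HSP70-binding co-chaperone Bag3 (3.32-fold) and the J protein Dnajb1 (3.22-fold). The constitutive HSP70 Hspa8, the inducible HSP90 Hsp90aa1, the small heat shock proteins Hspb1 and Cryab, and the regulator Hsf1 did not pass. No listed gene was called lower. A gene was called at an adjusted p under 0.05 in limma and a fold change of at least 2, and by this rule 1.8% of the 13863 tested genes were called higher and 0.894% lower. Groups without overlap, 0 h p.r. higher, were found for 8.15% of the tested genes. The median log2 fold change was 0.87 over the 9 genes and -0.0014 over the tested genes.

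The libraries held 10660131 to 17464752 reads in the listed genes, recovered from the deposited FPKM (fragments per kilobase of gene, scaled by a factor per library). That factor was not in proportion to these reads, and the FPKM of a library summed to between 554130 and 900138. All 8 fixed tenocyte markers were listed and none was at 0, with summed FPKM of 3777 to 7451 in NC and 4154 to 7450 in 0 h p.r. NC replicate 2 had the lowest depth and stood apart in its share of FPKM from the 13 mitochondrial genes, at 31.1% against 16.3% to 21.9% in the other 7 libraries. It was also the lowest NC library for 6 of the 9 genes. Of the 14 fixed skeletal muscle markers, 11 were listed, and their summed FPKM ran from 5161 to 9442 in NC and from 1273 (replicate 4) to 42777 (replicate 1) in 0 h p.r. Of the 8 adipocyte markers, 7 were listed, 4 were called lower, none was at 0, and their summed FPKM was 829 to 1791 in 0 h p.r. against 2474 to 4572 in NC. The part of these differences in the results below was not tested, except where a fit with the muscle markers is given. In a bulk tissue, fewer cells of a type and less RNA per cell cannot be told apart.

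Because HSF1 recognises letters that can be read directly, the promoters of the listed genes are shown first. Promoters from 250 bases before to 50 bases after the transcription start were found for 6 of the 10 symbols in RefSeq (build GRCr8), namely Hspa1a, Hspa8, Hsph1, Hspb1, Dnajb1 and Bag3. The 2-unit motifs GAANNTTC and TTCNNGAA were searched, as were the 3-unit motifs that lengthen them by NNGAA and NNTTC. The 2-unit motifs are their own reverse complements and the 3-unit motifs are those of each other, so both strands were covered, and each 3-unit match also counts as overlapping 2-unit matches. Of the 33469 rat promoters in that table, 15.9% held a 2-unit motif and 0.798% a 3-unit motif. Among the 6 promoters, 5 held a 2-unit motif and 2 held a 3-unit motif. The 250 bases before the start are printed 5′ to 3′ on the strand of the gene for the 5 with a match, with the fixed bases of the motifs in capitals, so that the matches of called genes (Hsph1, Dnajb1, Bag3) and of genes that were not called (Hspa8, Hspb1) can be set side by side.
Hsph1: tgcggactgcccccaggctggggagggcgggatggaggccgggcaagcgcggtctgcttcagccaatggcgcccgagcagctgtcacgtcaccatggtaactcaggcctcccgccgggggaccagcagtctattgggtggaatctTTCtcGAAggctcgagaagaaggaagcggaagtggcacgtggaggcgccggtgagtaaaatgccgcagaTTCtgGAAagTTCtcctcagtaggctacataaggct
Hspa8: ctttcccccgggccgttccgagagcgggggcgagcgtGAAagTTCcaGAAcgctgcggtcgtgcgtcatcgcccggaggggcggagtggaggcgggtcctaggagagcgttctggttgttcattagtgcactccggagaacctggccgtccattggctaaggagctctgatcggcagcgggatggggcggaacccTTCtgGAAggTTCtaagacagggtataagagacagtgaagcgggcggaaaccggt
Dnajb1: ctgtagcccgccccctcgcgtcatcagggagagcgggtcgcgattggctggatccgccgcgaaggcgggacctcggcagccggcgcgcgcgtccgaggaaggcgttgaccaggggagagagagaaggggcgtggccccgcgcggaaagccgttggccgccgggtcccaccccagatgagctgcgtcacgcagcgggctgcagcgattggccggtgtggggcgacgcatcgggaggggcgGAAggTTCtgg
Bag3: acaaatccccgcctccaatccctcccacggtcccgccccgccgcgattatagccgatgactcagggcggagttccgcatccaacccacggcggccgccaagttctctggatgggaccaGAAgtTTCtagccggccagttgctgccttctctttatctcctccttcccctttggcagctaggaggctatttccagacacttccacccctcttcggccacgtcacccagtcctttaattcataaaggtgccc
Hspb1: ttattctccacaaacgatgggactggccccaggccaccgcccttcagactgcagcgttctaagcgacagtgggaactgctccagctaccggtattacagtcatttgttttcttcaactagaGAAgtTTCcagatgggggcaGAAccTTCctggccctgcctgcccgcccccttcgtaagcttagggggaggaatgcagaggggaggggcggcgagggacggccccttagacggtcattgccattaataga

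These stretches lie at chr12:10427118-10427367 (plus strand) for Hsph1, chr8:50080264-50080513 (plus strand) for Hspa8, chr19:41431142-41431391 (minus strand) for Dnajb1, chr1:192533210-192533459 (plus strand) for Bag3 and chr12:26432302-26432551 (minus strand) for Hspb1. With positions counted from the start and naming the first base of a match, Hsph1 had a 3-unit match at -36 and a further 2-unit match at -105. Hspa8 had 3-unit matches at -213 and -55. Dnajb1 had a 2-unit match at -11 and another at 18, outside the printed stretch. Bag3 had a single 2-unit match, at -132, and Hspb1 had 2-unit matches at -129 and -109. The promoter of Hspa1a held none of these letters in the window. A match is a description of the letters, and 3-unit matches were held by a gene that was called (Hsph1) and by a gene that was not (Hspa8).

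**Figure D1:**
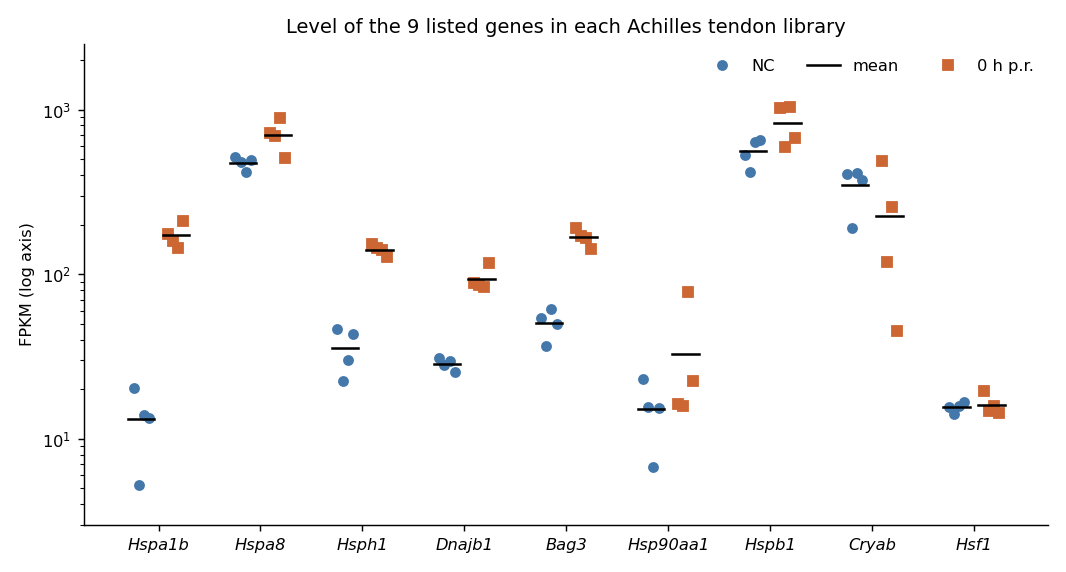
FPKM of the 9 listed genes in each library, on a log axis, with NC as circles, 0 h p.r. as squares and a line at the mean of each group (n = 4). The groups separate for Hspa1b, Hsph1, Dnajb1 and Bag3 and overlap for the other 5 genes, and the single high square of Hsp90aa1 is 0 h p.r. replicate 3 at 77.4.

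The HSP70 chaperones were examined first. Hspa1b (ENSRNOG00000050647) encodes the stress-inducible cytosolic HSP70. Its FPKM was 20.5, 5.22, 14.0 and 13.5 in NC replicates 1 to 4 and 176, 159, 143 and 211 in 0 h p.r. replicates 1 to 4. Every library after running lay far above every control, and NC replicate 2 was the lowest of all. The mean was 13.3 ± 6.24 in NC compared with 172 ± 29.0 after running (SD, n = 4). The log2 fold change was 3.78 with a standard error of 0.35 and a 95% confidence interval of 2.99 to 4.56 (adjusted p = 0.000886 in limma), which is 13.7-fold with an interval of 7.97 to 23.6. Of the tested genes only 1, the cytokine gene Il6, had a larger estimate. Hspa1b rested on 127 to 893 reads per NC library and 4515 to 9359 per 0 h p.r. library. Without NC replicate 2 the log2 fold change was 3.40 (adjusted p = 0.000587).

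Hspa1a and Hspa1b are neighbouring, nearly identical HSP70 genes, and how reads that fit both were counted is not given in the sources used here. A further row, LOC108348108 (ENSRNOG00000045654), was looked up after the values had been seen, because its number is the RefSeq gene ID of a gene with the symbol Hspa1b. Its FPKM was 0.455, 0, 0.162 and 0.287 in NC, and 1.86, 3.09, 2.45 and 2.32 in 0 h p.r., from 0 to 17 and 52 to 118 reads. Every NC value was under the 0.5 FPKM of the filter, so the row was tested only through the 0 h p.r. libraries and no test is given. The level was at most 2.22% of that of Hspa1b in any library. The level given for Hspa1b is thus that of its row and could include reads of the other inducible HSP70 copies.

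Hspa8 (ENSRNOG00000034066), the constitutive HSC70 that serves unstressed cells, was among the most abundant of the listed genes. Its FPKM was 513, 480, 419 and 495 in NC, and 719, 690, 892 and 508 in 0 h p.r. After running, 3 of the 4 libraries lay above all controls and replicate 4 lay within the control range. The means were 477 ± 40.5 and 702 ± 157 (SD, n = 4). The log2 fold change of 0.53 (SE 0.20, 95% confidence interval 0.08 to 0.98) did not pass the test (adjusted p = 0.152 in limma). Leaving out 0 h p.r. replicate 4 gave 0.68 (adjusted p = 0.0591), and leaving out replicate 3 gave 0.41 (adjusted p = 0.348).

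Because both values come from the same library and are per length, Hspa1b was set against Hspa8. Hspa1b reached 3.99%, 1.09%, 3.33% and 2.72% of the Hspa8 FPKM in NC and 24.5%, 23.1%, 16.1% and 41.5% in 0 h p.r. The share was above 16% in every library after running and below 4% in every control. Its mean went from 2.78% ± 1.24 to 26.3% ± 10.8 (SD, n = 4), a 9.45-fold difference of the means. Replicate 4, with the highest share, combined the highest Hspa1b with the lowest Hspa8 of the 0 h p.r. libraries.

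**Figure D2:**
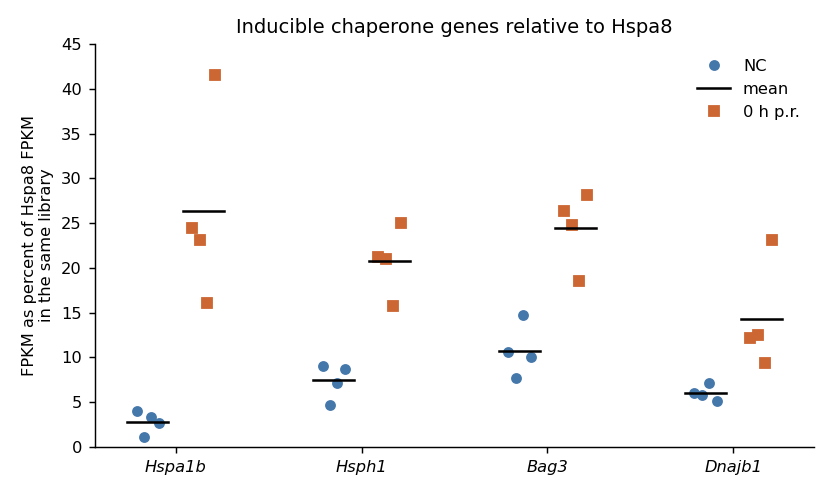
FPKM of Hspa1b, Hsph1, Bag3 and Dnajb1 as a percent of Hspa8 FPKM in the same library, with NC as circles, 0 h p.r. as squares and a line at each mean (n = 4). The 4 ratios are higher in all 0 h p.r. libraries than in any NC library, and the mean for Hspa1b goes from 2.78% to 26.3%.

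The partners of HSP70 were examined next. Hsph1 (ENSRNOG00000000902) encodes HSP110, a nucleotide exchange factor that also takes part in breaking up protein aggregates. Its FPKM was 46.6, 22.6, 30.0 and 43.3 in NC, and 152, 144, 141 and 127 in 0 h p.r. The libraries after running lay close together and well above the controls. The mean was 35.6 ± 11.3 in NC compared with 141 ± 10.4 after running (SD, n = 4), and the log2 fold change was 2.03 (SE 0.22, 95% confidence interval 1.53 to 2.52, adjusted p = 0.00205 in limma). Relative to Hspa8 the mean share went from 7.42% ± 2.00 to 20.7% ± 3.8 (SD, n = 4).

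Dnajb1 (ENSRNOG00000021824) encodes the inducible J protein HSP40, which delivers clients to HSP70. FPKM values of 31.0, 28.1, 29.7 and 25.5 in NC compared with 87.8, 86.2, 83.9 and 117 in 0 h p.r. The controls were tightly grouped, as were the first 3 libraries after running, while replicate 4 was higher. The mean was 28.6 ± 2.36 in NC compared with 93.8 ± 15.8 after running (SD, n = 4). The log2 fold change was 1.69 (SE 0.13, 95% confidence interval 1.38 to 1.99), and its adjusted p of 0.000532 in limma was the lowest among the 9 genes. Relative to Hspa8 the mean share went from 6.03% ± 0.798 to 14.3% ± 6.04 (SD, n = 4).

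Bag3 (ENSRNOG00000020298) couples HSP70 to small heat shock proteins and to selective autophagy of damaged, tension-bearing proteins. It stood at 54.4, 36.8, 61.9 and 49.5 FPKM in NC and at 190, 171, 165 and 143 FPKM in 0 h p.r. All libraries after running exceeded all controls. The mean was 50.7 ± 10.5 in NC compared with 167 ± 19.3 after running (SD, n = 4), with a log2 fold change of 1.73 (SE 0.17, 95% confidence interval 1.34 to 2.12, adjusted p = 0.00134 in limma). Without NC replicate 2 the log2 fold change was 1.83 for Hsph1 (adjusted p = 0.00280), 1.68 for Dnajb1 (adjusted p = 0.00232) and 1.59 for Bag3 (adjusted p = 0.00194). Relative to Hspa8 the mean share of Bag3 went from 10.8% ± 2.95 to 24.5% ± 4.18 (SD, n = 4).

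**Figure D3:**
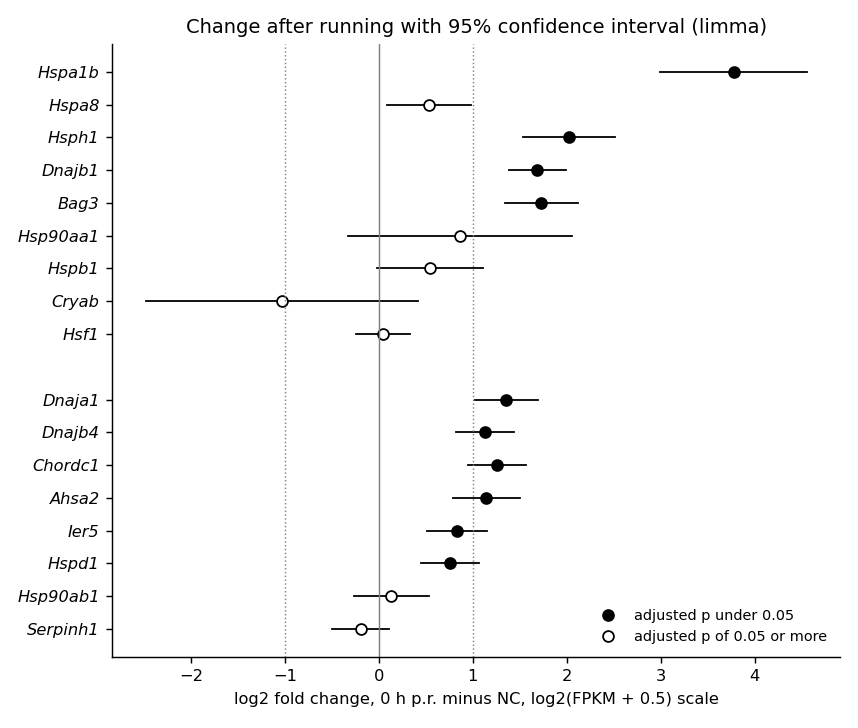
Log2 fold change, 0 h p.r. minus NC, with its 95% confidence interval from limma on the log2(FPKM + 0.5) scale, for the 9 listed genes (upper block) and for 8 further heat shock response genes (lower block). Filled points have an adjusted p under 0.05, dotted lines mark a fold of 2, and Hspa1b stands farthest to the right at 3.78 while the intervals of Hsp90aa1, Hspb1, Cryab and Hsf1 include 0.

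Hsp90aa1 (ENSRNOG00000059714), the inducible HSP90 that keeps kinases and steroid receptors foldable, varied within the groups. Its FPKM was 23.2, 15.7, 6.72 and 15.3 in NC, and 16.2, 15.8, 77.4 and 22.4 in 0 h p.r. Replicate 3 was the single high library after running, and the other 3 lay inside the control range. The means were 15.2 ± 6.72 and 32.9 ± 29.8 (SD, n = 4), and the log2 fold change of 0.87 (SE 0.53, 95% confidence interval -0.33 to 2.06) did not pass (adjusted p = 0.381 in limma). Without 0 h p.r. replicate 3 it was 0.35 (adjusted p = 0.715). The row held 272 to 2737 reads per library. Against its constitutive paralog Hsp90ab1, Hsp90aa1 reached 3.43%, 2.62%, 1.22% and 2.13% in NC and 2.09%, 2.40%, 9.94% and 3.81% in 0 h p.r.

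The small heat shock proteins hold unfolded proteins without ATP and are abundant in contractile and load-bearing cells. Hspb1 (ENSRNOG00000023546), or HSP27, had the highest mean level of the 9 genes in both groups. Its FPKM was 531, 420, 632 and 653 in NC, and 1024, 590, 1033 and 671 in 0 h p.r. After running, replicates 1 and 3 were well above the controls, replicate 4 slightly above and replicate 2 within their range. The means were 559 ± 107 and 829 ± 232 (SD, n = 4), with a log2 fold change of 0.55 (SE 0.25, 95% confidence interval -0.02 to 1.11) that did not pass (adjusted p = 0.239 in limma).

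Cryab (ENSRNOG00000010524), or αB-crystallin, was the listed gene with an estimate below 0. Its FPKM was 406, 192, 412 and 375 in NC, and 487, 119, 257 and 45.4 in 0 h p.r. The highest and the lowest of all 8 libraries were both from the 0 h p.r. group, so the groups overlapped. The highest 0 h p.r. library was 10.7 times the lowest, against 2.15 times in NC. The means were 346 ± 104 and 227 ± 194 (SD, n = 4), and the log2 fold change of -1.03 (SE 0.64, 95% confidence interval -2.48 to 0.41) did not pass (adjusted p = 0.389 in limma). Without 0 h p.r. replicate 4 it was -0.43 (adjusted p = 0.619), and without replicate 1 it was -1.56 (adjusted p = 0.157). Hspb1 exceeded Cryab by 1.31 to 2.18 times in NC and by 2.1, 4.96, 4.03 and 14.8 times in 0 h p.r. replicates 1 to 4.

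Cryab is also a major protein of skeletal muscle, and the muscle markers varied in the same libraries. The mean log2 level of the 11 listed markers was 7.65, 9.01, 9.09 and 8.39 in NC, and 11.2, 8.77, 9.55 and 6.25 in 0 h p.r. The 0 h p.r. library highest in Cryab (replicate 1) was the highest in these markers, and the lowest (replicate 4) was the lowest. The difference of the marker mean between the groups was 0.40 (two-sided exact permutation p = 0.743). That mean joins markers whose estimates had both signs, with 9 above 0 and 2 below 0, the slow-fibre myosin Myh7 and the myoglobin gene Mb, and 0 of the 11 passing the test. Myh7 stood at 306, 61.1, 329 and 226 FPKM in NC and at 161, 39.8, 0.514 and 16.0 FPKM in 0 h p.r. (log2 fold change -3.42, adjusted p = 0.169 in limma), so replicate 3 was its lowest library although the marker mean was high there. Over the 8 libraries the correlation of Cryab with the marker mean was r = 0.66 (exact permutation p = 0.0934, adjusted over the 9 genes 0.420) and rho = 0.55 (exact permutation p = 0.171, adjusted 0.805). Without the 2 libraries farthest from the median marker level, 0 h p.r. replicates 1 and 4, r was -0.35. Leaving these out also narrows the marker range from 6.25 to 11.2 down to 7.65 to 9.55, so the relation over the 8 libraries rests on those libraries and could not be tested without them. Hsf1 had r = 0.70 (exact permutation p = 0.0686, adjusted 0.420) and, without the same libraries, r = -0.21. Bag3, Hsph1 and Hsf1 were likewise highest in replicate 1 and lowest in replicate 4 among the 0 h p.r. libraries. With the marker mean, which does not follow Myh7, as a covariate in limma, the log2 fold change of Cryab was -1.28 (adjusted p = 0.0814). For Hspa1b, r over the 8 libraries was 0.05 (exact permutation p = 0.909), a value that includes the difference between the groups. Its log2 fold change with the covariate was 3.83 (adjusted p = 0.00115 in limma).

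**Figure D4:**
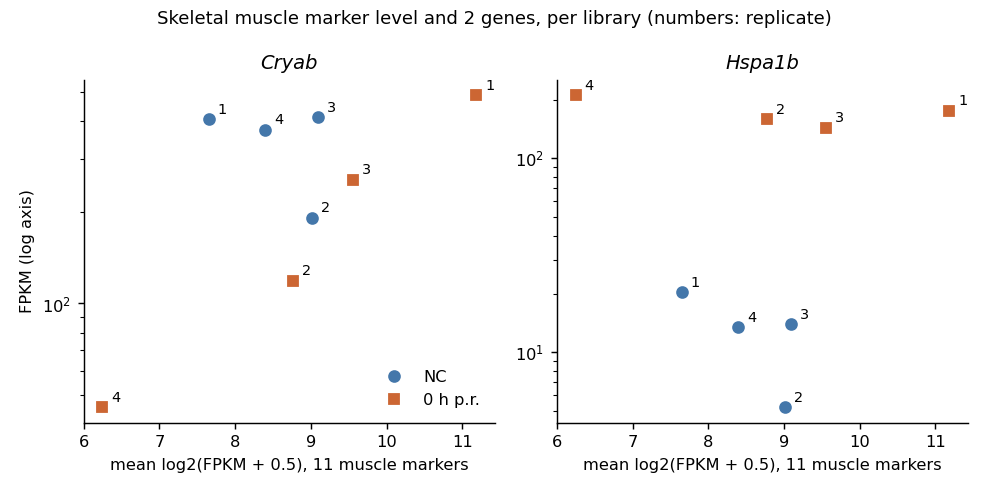
FPKM of Cryab (left) and Hspa1b (right), on log axes, against the mean log2(FPKM + 0.5) of 11 skeletal muscle markers in the same library, with NC as circles, 0 h p.r. as squares and the replicate number beside each point. Cryab is lowest (45.4) where the markers are lowest (6.25) and highest (487) where they are highest (11.2), whereas Hspa1b is at 143 to 211 in all 4 libraries after running.

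Hsf1 (ENSRNOG00000021732), the transcription factor of the response, is regulated largely at the level of its protein. Its FPKM was 15.6, 14.1, 15.7 and 16.8 in NC, and 19.7, 14.7, 15.8 and 14.3 in 0 h p.r. Except for 0 h p.r. replicate 1, all libraries lay within the control range. The means were 15.6 ± 1.09 and 16.1 ± 2.43 (SD, n = 4), and the log2 fold change of 0.04 (SE 0.13, 95% confidence interval -0.24 to 0.33) did not pass (adjusted p = 0.898 in limma). The sign of this estimate changed with quantile scaling, and when either 0 h p.r. replicate 1 or NC replicate 2 was left out.

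The order of the mean FPKM, which is per length, differed between the groups. In NC it ran Hspb1, Hspa8, Cryab, Bag3, Hsph1, Dnajb1, Hsf1, Hsp90aa1 and Hspa1b. Neighbours in this order overlapped in their ranges except Hspa8 with Cryab, Cryab with Bag3, and Dnajb1 with Hsf1. In 0 h p.r. it ran Hspb1, Hspa8, Cryab, Hspa1b, Bag3, Hsph1, Dnajb1, Hsp90aa1 and Hsf1, and the neighbours without overlap were Hspa8 with Cryab, Hsph1 with Dnajb1, and Dnajb1 with Hsp90aa1. Hspa1b thus moved from the lowest mean of the 9 to the fourth. The 9 genes together took 0.135% to 0.304% of the FPKM of an NC library and 0.320% to 0.433% of a 0 h p.r. library. The lowest share was that of NC replicate 2, and the other 3 controls were at 0.279% to 0.304%.

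No single library after running was high in every gene. Replicate 4 was the highest of its group for Hspa1b and Dnajb1 and the lowest for Hspa8, Hsph1, Bag3, Cryab and Hsf1. Replicate 1 was the highest for 4 of the 9 genes and replicate 3 for 3. As a description over the 8 libraries, with no test and with the group difference shared by all points, the genes most like Hspa1b were Tcaf1 (r = 0.993), Irak2 (0.990), Csnk1e (0.988), Sik1 (0.987) and Klf16 (0.986). Those most like Cryab were Actn2 (r = 0.987), Coro6 (0.985), Ckmt2 (0.972), Asb5 (0.971) and AABR07032904.1 (0.963). Actn2, the α-actinin of the sarcomere, stood at 152, 39.2, 135 and 91.8 FPKM in NC and at 135, 29.2, 55.5 and 7.70 FPKM in 0 h p.r. Like Cryab, it was lowest in replicate 4 after running and, among the controls, in replicate 2.

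The wider response was examined with 47 other chaperones, cofactors and regulators, of which 46 were listed and tested and Bag5 was not listed. Of these, 4 were called higher and none lower, where 1.8% and 0.894% of the tested genes were called. The called genes were the J proteins Dnaja1 and Dnajb4 and the HSP90 cofactors Chordc1 and Ahsa2. At an adjusted p under 0.05 and any fold, 7 were higher and none lower, against 3.49% and 2.23% of the tested genes. This count depended on single libraries. Without 0 h p.r. replicate 3, or with the replicate number as a block, only the 4 called genes passed. Without 0 h p.r. replicate 4, Hspa4, Hspa9 and Cacybp passed too. Estimates were above 0 for 33 and below 0 for 13, with a median of 0.16. The groups did not overlap for 10 genes that were higher in 0 h p.r. and for 2 that were lower, Hspa12a and Hspa12b, against 8.15% and 7.47% of the tested genes.

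Among the J proteins, 2 of 7 were called higher. Dnaja1 (ENSRNOG00000007029), a farnesylated partner of HSC70, rose from a mean FPKM of 121 ± 17.2 to 312 ± 33.6 (SD, n = 4; log2 fold change 1.36, adjusted p = 0.00205 in limma). Dnajb4, a close relative of Dnajb1, rose from 39.7 ± 4.81 to 87.5 ± 11.7 (1.13, adjusted p = 0.00339). In the HSP90 group 2 of 9 were called. Chordc1, an HSP90-binding protein, rose from 12.7 ± 1.16 to 31.1 ± 4.67 (1.26, adjusted p = 0.00205). Ahsa2, a relative of the HSP90 ATPase activator Ahsa1, rose from 15 ± 2.86 to 33.6 ± 4.38 (1.14, adjusted p = 0.00632). Its call was lost when each library was rescaled to a common sum (1.15, adjusted p = 0.0669). The constitutive HSP90 Hsp90ab1 had 636 ± 75.2 in NC compared with 700 ± 94.1 after running and did not pass (0.14, adjusted p = 0.719).

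Of the 16 tested HSP70 relatives and cofactors, 7 had an unadjusted p under 0.05 in limma (5 higher and 2 lower). At least 2748 of the 13863 tested genes also did. None of the 16 passed at any fold in limma, and their median log2 fold change was 0.13. The nearest was Hspa4l, at 1.48 ± 0.685 and 3.10 ± 0.293 FPKM (SD, n = 4; 0.92, adjusted p = 0.0573 in limma). It passed with quantile scaling (0.98, adjusted p = 0.0408), and was called with limma-voom on the recovered reads (1.12, adjusted p = 0.0430) and without NC replicate 4 (1.13, adjusted p = 0.0274). Without 0 h p.r. replicate 4, Hspa4 (0.63, adjusted p = 0.0172) and the mitochondrial HSP70 Hspa9 (0.57, adjusted p = 0.0219) passed at under 2-fold. Of the chaperonin and collagen chaperone genes, the mitochondrial HSP60 gene Hspd1 rose by less than 2-fold, from 67.9 ± 5.81 to 116 ± 16.4 (0.76, adjusted p = 0.0165). Serpinh1, the collagen chaperone HSP47 of the endoplasmic reticulum, had 428 ± 24.2 in NC compared with 375 ± 29.2 after running and did not pass (-0.19, adjusted p = 0.454). Among the regulators, Ier5, an HSF1 cofactor, rose from 27.0 ± 5.0 to 47.9 ± 1.91 (0.83, adjusted p = 0.0141). The passes of Ier5 and Hspd1 at any fold were kept when each library was left out in turn in 7 and 5 of 8 cases. The highest adjusted p was 0.0513 for Ier5 (0 h p.r. replicate 3 left out) and 0.0585 for Hspd1 (0 h p.r. replicate 2 left out), whose pass was also lost when 0 h p.r. replicate 3 or NC replicate 3 was left out. Both genes also lost the pass after rescaling to a common sum (adjusted p = 0.108 for Ier5 and 0.123 for Hspd1) and with the replicate block (0.0634 and 0.0848).

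The 5 other small heat shock proteins had a median log2 fold change of -0.56 and none passed. Hspb7 had the lowest estimate, with FPKM of 209, 42.5, 250 and 153 in NC and 129, 34.3, 38.2 and 19.0 in 0 h p.r. (-1.67, 95% confidence interval -3.17 to -0.17, adjusted p = 0.176 in limma). Hspb6 was at 306, 129, 224 and 200 in NC and 241, 77.5, 92.7 and 51.6 in 0 h p.r. (-1.07, adjusted p = 0.194). As with Cryab, replicate 1 was the highest and replicate 4 the lowest library after running for both genes, and NC replicate 2 was the lowest control. Hspb8, which forms a complex with Bag3, was at 52.1, 29.6, 99.5 and 66.8 in NC and 151, 93.7, 132 and 56.3 in 0 h p.r. (0.83, adjusted p = 0.259), with overlapping groups.

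**Figure D5:**
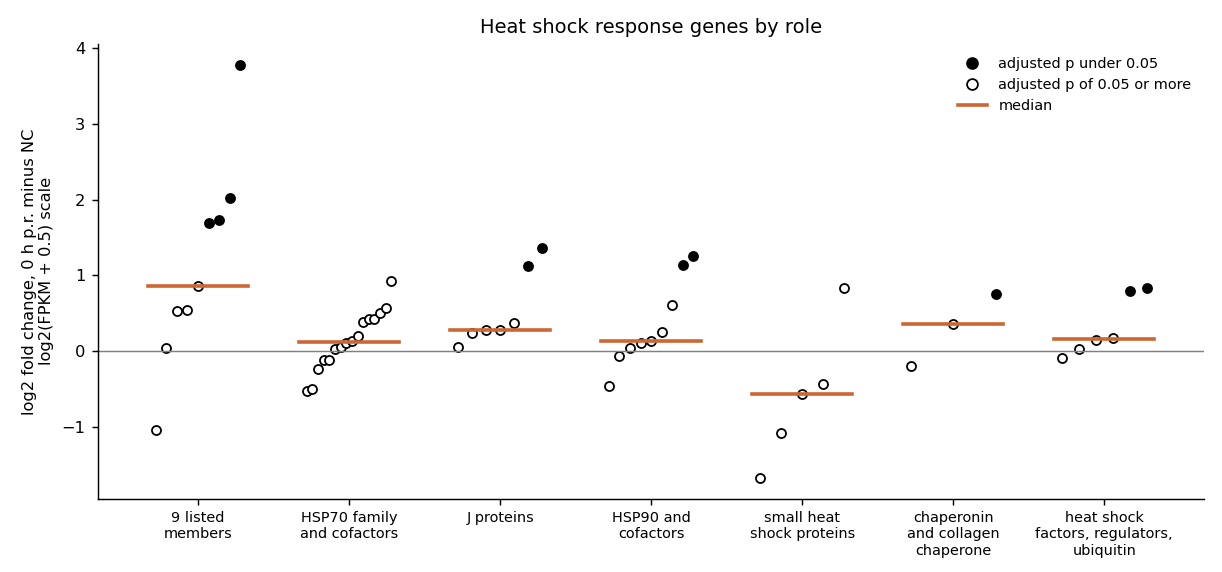
Log2 fold change, 0 h p.r. minus NC, of the 9 listed genes and of 46 other heat shock response genes grouped by role, with filled points for an adjusted p under 0.05 in limma and a line at each median. Beside 4 of the listed genes, filled points are found among the J proteins, HSP90 cofactors, chaperonins and regulators, and the small heat shock proteins have the lowest median, at -0.56.

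For the 47 other genes, RefSeq held 40 promoters, of which 15 held a 2-unit motif and 5 a 3-unit motif. Ubb had more than a single entry among them, so fewer than 40 genes had a promoter. The 5 were those of Dnaja1 and Chordc1, which were called, Hspd1, which passed at under 2-fold, and Hspe1 and Serpinh1. Neither Hspe1 (0.36, adjusted p = 0.388 in limma) nor the collagen chaperone Serpinh1 passed. The windows of Hspd1 and Hspe1 overlap on opposite strands, and their 3-unit matches are the same bases.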

How the data were processed

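Polyadenylated RNA from right Achilles tendons was sequenced in 4 NC and 4 0 h p.r. libraries, grouped and numbered by their labels. Per the methods and the submitters' processing notes, the authors made stranded libraries, aligned reads with HISAT2 2.1.0 to Rnor_6.0, counted them with featureCounts 1.6.3 and normalised with DESeq2 1.30.1. The deposited values were FPKM per gene and library. The deposited fold changes and p-values are the comparison made by the authors and were not used.

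Genes were tested where at least 4 libraries had 0.5 FPKM or more (13863; 1727 were left out), including all 9 listed members. Values were taken as log2(FPKM + 0.5), a scale that understates the change of low genes, and compared with limma 3.58.1 (trend, two-sided) in R 4.3.3 and p-values were adjusted by Benjamini-Hochberg over all genes tested. Called genes had an adjusted p under 0.05 and a fold of at least 2. Whole reads were recovered from the FPKM steps for 15589 of 15590 genes (99.99% within 0.02 reads) and served as depth and for a fit with limma-voom, which called 262 genes higher and 155 lower against 250 and 124. The count tests of other packages were not run. Exact permutation tests of a difference between groups used the 70 possible assignments, and their smallest two-sided p is 0.0286. Those of a correlation used every ordering of the 8 libraries. The fit was tested on simulated data.

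The genes named were all listed members, the other heat shock response genes with an adjusted p under 0.05 (except 1 that is not reported here), and Hsp90ab1, Hspd1 and Serpinh1. The 5 genes most like Hspa1b and Cryab were named by Pearson's r. Others, including LOC108348108, Hspa4, Hspa4l, Hspa9, Cacybp, Hspa12a, Hspa12b and the small heat shock proteins, were named after their values were seen. The members and lists were chosen with earlier results of these data known. The endothelium list (4 of 5 listed, summed FPKM 210 to 256 in NC and 200 to 291 in 0 h p.r., exact p = 0.971) and the macrophage list (5 of 5, 49.1 to 86.3 and 33.8 to 74.2, exact p = 0.343) were also summarised. The tenocyte list gave an exact p of 0.657 and the adipocyte list one of 0.0286. Each library was treated as a separate animal, which the labels do not state, and the p-values measure the spread between libraries. Alternatives were other pseudocounts, filters and scalings, a replicate block, the muscle markers as a covariate, limma-voom and leaving out each library. Median-ratio scaling stayed close to the main fit, with 250 genes called higher and 124 lower in both.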

Additional observations from a re-analysis of the deposited data

Results flagged for a closer look

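In 3 of 18 groups of 4 libraries tested, a single library lay farther from the rest than Dixon's 95% critical value allows, where chance alone flags about 1 group in 20. Hsp90aa1 reached 77.4 FPKM in 0 h p.r. replicate 3, with 15.8 to 22.4 in the other 3 libraries of its group. Cryab was at 192 FPKM in NC replicate 2, with 375 to 412 in the other controls. Dnajb1 was at 117 FPKM in 0 h p.r. replicate 4, with 83.9 to 87.8 in the others, and its call held without that library (log2 fold change 1.58, adjusted p = 0.000375 in limma).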

How the results depend on the processing

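The calls of Hspa1b, Hsph1, Dnajb1 and Bag3 held under the 18 alternatives run for each gene, the count of called members being 4 higher and 0 lower in every setting. The highest adjusted p in limma was 0.00637 for Hspa1b, 0.0141 for Hsph1, 0.0121 for Dnajb1 and 0.0131 for Bag3. The other 5 members passed under no alternative, their lowest adjusted p being 0.0591 (Hspa8, without 0 h p.r. replicate 4). The sign of Hsf1 was reversed by quantile scaling (-0.013) and in fits that left out a library (-0.055 to 0.094). Without 0 h p.r. replicate 1, 1 other heat shock response gene was called lower (Hspb6), against 0 in the other 7 such fits. With all libraries and no fold threshold, 7 of the other genes passed as higher in place of 4. With no fold threshold, only those 4 passed without 0 h p.r. replicate 3 or with the replicate block. The count of other genes called higher was 5 with limma-voom and without NC replicate 4 (Hspa4l added) and 3 after rescaling to a common sum (Ahsa2 lost). Cacybp (adjusted p = 0.0505) passed at any fold under 3 alternatives. Over all tested genes, 250 were called higher and 124 lower, against 129 and 37 after rescaling each library to a common sum and 177 and 35 with the replicate block. Leaving out 1 library gave from 157 and 38 (without 0 h p.r. replicate 2) to 307 and 209 (without 0 h p.r. replicate 4). The cause of these differences was not tested.

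The replicate numbers did not pair the libraries, since the correlations of same-numbered deviations were -0.141, -0.071, 0.072 and 0.0056. With the replicate number as a block the log2 fold change of Hspa1b was 3.78 (adjusted p = 0.00637) and 4 members were called. The medians of all tested genes moved by at most 0.03 under the scalings. With 4 libraries a group and the spread of Cryab and Hsp90aa1, log2 differences down to -2.48 for Cryab and up to 2.06 for Hsp90aa1 lie within the intervals.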

Other observations

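The 5 genes most like Hsp90aa1 over the 8 libraries, looked up after the data were seen, were Irf7 (r = 0.960), Alkbh4 (0.959), Ifi47 (0.927), Ifit3 (0.921) and Tvp23a (0.918). Irf7 was at 10.5, 10.1, 5.73 and 12.8 FPKM in NC, and at 10.7, 10.7, 35.7 and 15.4 FPKM in 0 h p.r. Like Hsp90aa1, these genes were highest in 0 h p.r. replicate 3 and lowest in NC replicate 3. In the former library Alkbh4 was at 5.65, Ifi47 at 18.2, Ifit3 at 18.6 and Tvp23a at 8.14 FPKM, against at most 4.05, 9.97, 9.60 and 5.94 FPKM in the other 7 libraries.

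The 5 genes most like Hsph1 were Ahsa2 (r = 0.989), Elf1 (0.989), Zbtb21 (0.987), Dnaja1 (0.985) and Ints6 (0.985). Those most like Dnajb1 were Btg2 (r = 0.988), Slc24a5 (0.976), Gja1 (0.976), Ier3 (0.976) and Dnajb4 (0.975). Those most like Bag3 were Sik1 (r = 0.993), Ints6 (0.992), Nr4a3 (0.992), Fam220a (0.991) and Mob3a (0.991). These values share the group difference, carry no test and are descriptions over 8 libraries.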
